A study of Mus musculus with 8 samples.

Results

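Chondrogenic regulators and cartilage matrix genes were followed in mouse kidney rudiments, in cells sorted for GFP. The 9 genes were the transcription factors Sox9, Sox5 and Sox6, the matrix genes Acan, Matn1, Matn3, Matn4 and Hapln1, and the secreted protein gene Otor. They were found by the gene name that the array files give each probe, which gave 12 probes of the 39429 present on every array and 9 genes of 27299 named. Sox5 had 3 probes, Matn4 had 2 and each other gene had 1. Among 8 arrays, 2 carried RNA of Tbx18VP16 embryos, 3 of Tbx18 null embryos and 3 of control embryos.

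All embryos were NMRI mice at E11.5, and every group carried at least 1 altered Tbx18 allele. Tbx18VP16 embryos had the genotype Tbx18(cre/+);Hprt(CAG:Tbx18VP16-GFP), in which Cre made from the Tbx18 locus turns on, from the Hprt locus, Tbx18 joined to the activation domain of VP16, along with GFP. Tbx18 null embryos were Tbx18(GFP/GFP) and control embryos were Tbx18(GFP/+), so the controls had 1 working copy of Tbx18. GFP reported Tbx18 promoter activity directly in null and control embryos, whereas in Tbx18VP16 embryos it marked cells that had made Cre. Each array held RNA of 1 pool of some 100000 cells, taken from both sexes over several sorts. The labels give 20 ng of total RNA per sample, or 10 ng for replicate 3 of null and control.

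Sox9 is the transcription factor that cartilage formation requires, and Sox5 and Sox6 are partner factors that lack an activation domain of their own and act together with it on cartilage genes. Acan encodes aggrecan, the large proteoglycan of cartilage, Hapln1 the link protein that fastens aggrecan to hyaluronan, and the matrilins Matn1, Matn3 and Matn4 are adaptor proteins that join matrix fibres. Otor encodes otoraplin, a small secreted protein known from cartilage and the inner ear. Tbx18 is a T-box factor of the mesenchyme around the early ureter, where Sox9 is also active and, in mouse, is needed for smooth muscle differentiation.

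A level is given as log2 of the processed signal of a probe minus the 75th percentile of its array, so 0 is the brightness below which 75% of the probes lie and each unit is a doubling. Levels of different probes are not comparable, because probes differ in how well they bind. In each array 60.1% to 66.0% of the probes were well above background, no spot was saturated, and the 75th percentile of the signal lay between 976 and 2129. Slide 1 held replicates 1 and 2 of null and control, slide 2 held replicate 3 of both, and slide 3, of another array design, held both Tbx18VP16 arrays. Array design, slide and source of GFP therefore cannot be told apart from genotype in comparisons with Tbx18VP16. The Tbx18 probe averaged 3.23 ± 0.45 (SE) higher on Tbx18VP16 than on null arrays (adjusted p = 0.0141, limma). It read 1.34 and 1.06 on Tbx18VP16 arrays, -2.40, -1.34 and -2.35 on null arrays, and -0.02, 1.20 and 1.04 on control arrays, so every null array was below every other array, and the null minus control difference had an adjusted p of 0.118. All 8 markers listed for Tbx18-positive mesenchyme, Sox9 among them, were well above background on every array. Of the 8, 6 were lower in the null pool of all 3 replicate pairs, against 17.4% of all genes. Those 6 include Tbx18, which the genotype itself alters, and Sox9, which is 1 of the genes described here. A difference in a pool may come from fewer cells of a type or from less RNA per cell, and these cannot be told apart.

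The sequences of 6 probes are shown because the results for Otor, Matn4 and Sox5 rest on where and on what these probes bind. They are 60 bases long and written 5′ to 3′ in the sense of the transcript, with C and T in capitals so that stretches made only of A and G stand out in lower case. Coordinates are those of the array files (mm9). The Otor probe lies at chr2:142907089-142907148 on the plus strand. The Matn4 probes lie on the minus strand at chr2:164215177-164215236, starting at base 2400 of the transcript, and at chr2:164218579-164218638, starting at base 2017. The Sox5 probes lie on the minus strand at chr6:143776945-143776971 (base 4530), chr6:143781520-143781579 (base 2696) and chr6:143787982-143788041 (base 1166 of another Sox5 transcript).
Otor probe: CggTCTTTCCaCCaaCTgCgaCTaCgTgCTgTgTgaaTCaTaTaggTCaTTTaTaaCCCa
Matn4 probe at base 2400: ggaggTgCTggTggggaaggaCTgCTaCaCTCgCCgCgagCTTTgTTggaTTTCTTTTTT
Matn4 probe at base 2017: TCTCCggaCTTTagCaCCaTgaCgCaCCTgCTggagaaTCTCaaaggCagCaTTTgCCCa
Sox5 probe at base 4530: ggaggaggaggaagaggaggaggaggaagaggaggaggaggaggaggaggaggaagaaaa
Sox5 probe at base 2696: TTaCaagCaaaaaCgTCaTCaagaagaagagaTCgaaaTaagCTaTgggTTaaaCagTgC
Sox5 probe at base 1166: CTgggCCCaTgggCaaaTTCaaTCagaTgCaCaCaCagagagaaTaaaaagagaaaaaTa
The Sox5 probe at base 4530 holds 25 A and 35 G and no other base, and the files place only 27 bases of it on the genome. The other probes hold all 4 bases.

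Otor fell in Tbx18VP16 cells, the only one of the 8 genes tested that passed the test against control, where 5.34% of all 20597 genes tested passed and 3.3% were called lower. Matn1 was not tested, since its probe was well above background on 1 of 8 arrays. No gene passed the test of null against control (0%, 0 of 19708 genes) in limma, where 951 genes (4.83%) had an unadjusted p at or under 0.05. Of the 8 genes tested there, 3 were among those 951: Otor, Matn4 and Matn3. Between Tbx18VP16 and null, 0 of the 8 passed at an adjusted p of 0.05 in limma, against 3.67% of all genes called and 2.5% called lower, and 2 (Matn3 and Hapln1) had an unadjusted p at or under 0.05, against 22% of all genes. The plot of levels by array shows each gene on its own scale.

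**Figure D1:**
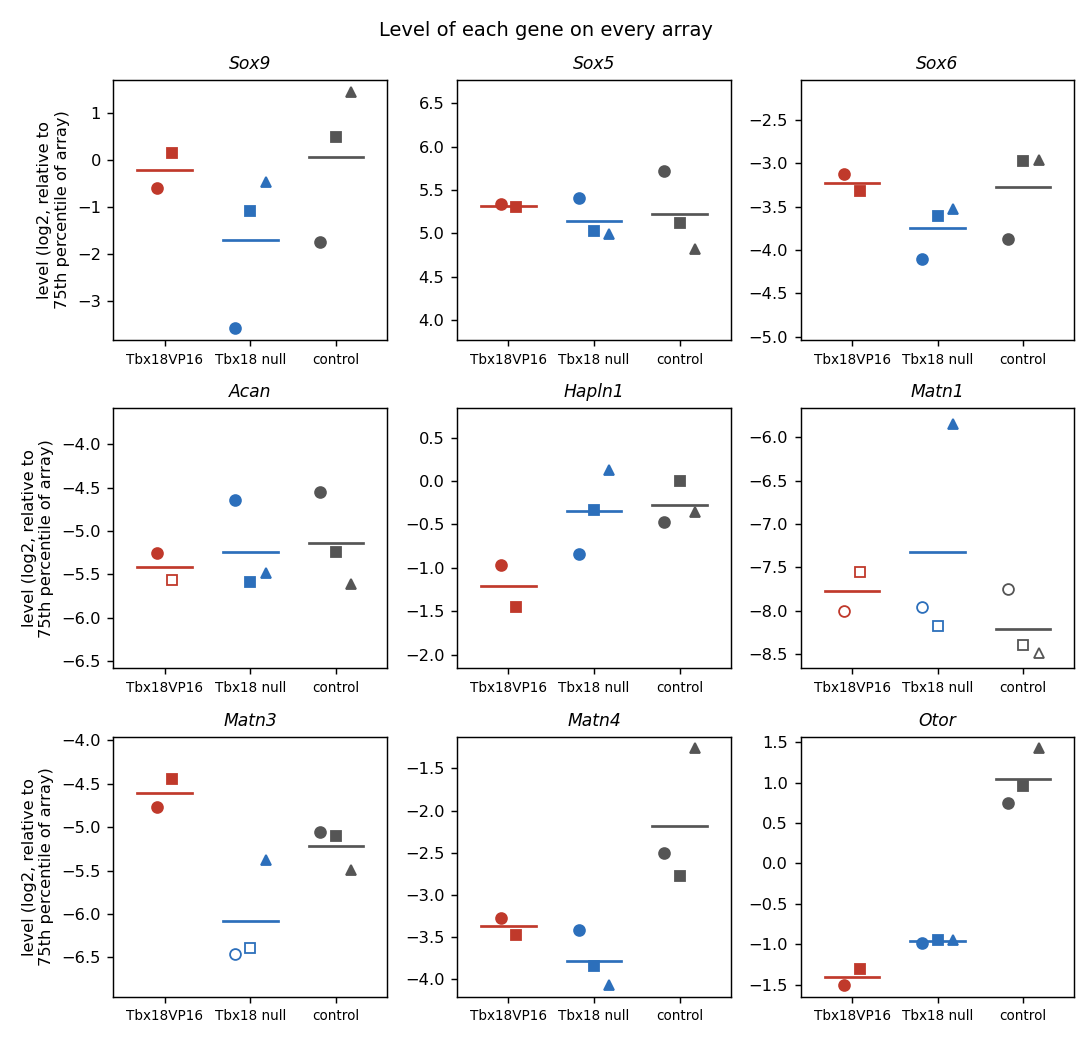
Levels of the 9 genes on each array (log2 of signal relative to the array's 75th percentile), 1 panel per gene with the probe that stands for it, with Tbx18VP16 left of Tbx18 null and control. Circles, squares and triangles are replicates 1, 2 and 3, filled symbols are well above background, and bars are group means. Otor sits between -1.50 and -0.94 on all 5 Tbx18VP16 and null arrays and between 0.75 and 1.42 on control arrays.

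All 8 genes tested averaged lower in null than in control cells, against 48.7% of all genes with a difference below 0. The differences of Hapln1 (-0.07 ± 0.31), Sox5 by its A and G probe (-0.08 ± 0.30) and Acan (-0.10 ± 0.38) were smaller than their SE. Matn1, which was not tested, averaged 0.89 higher in null. The median difference of the 8 genes tested was -0.67 on the log2 scale, against 0.01 for all genes. The null and control arrays did not overlap for 2 of the 8, Otor and Matn4, both lower in null, against 3.59% of all genes not overlapping in that direction. With null and control pools taken as pairs by replicate number, 4 of the 8 (Sox9, Sox6, Matn4 and Otor) were lower in the null pool of all 3 pairs, against 17.4% of all genes. In the fit with the replicate number as a block, 2 of the 8 fell in null cells, Sox9 and Otor, against 0.934% of all genes called in either direction and 0.452% called lower. The members were gathered with such results known, so the counts describe them and are not a test of the group.

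Marker lists of the tissue and of other cell types moved alongside these differences between null and control. Of the mesenchyme markers, Tbx18, Sox9, Tcf21, Pdgfra, Pdgfrb and Tshz3 were lower in null in all 3 pairs and Foxf1 was higher in all 3. Pdgfra, a growth factor receptor of mesenchyme, read 1.51, 2.21 and 1.90 on null arrays and 2.24, 2.91 and 2.93 on control arrays, without overlap. No marker of any list passed the test of null against control without the block (limma, 0 of 19708 genes). Markers of nephron progenitors had a summed linear signal, in units of the 75th percentile, of 37.8 to 45.4 on null arrays and 24.1 to 35.4 on control arrays.

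Null replicate 3 stood apart in several lists. Its erythroid markers summed to 540, against 5.47 and 25.7 on the other null arrays and 6.38 to 30.1 on control arrays. Its endothelial markers summed to 10.0 (other null arrays at most 2.67, control 1.51 to 2.45) and its sclerotome markers to 2.25 (other null arrays at most 1.25, control 0.181 to 0.297). Without this array 7 of the 8 cartilage genes still averaged lower in null than in control, and Acan had a difference of 0.02. Sox5, counted among the 7 by its A and G probe, had a difference of only -0.003 ± 0.37. The part of these cells in the null differences was not tested.

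Sox9, the regulator at the head of the program, read -0.59 and 0.15 on Tbx18VP16 arrays, -3.59, -1.09 and -0.46 on null arrays and -1.75, 0.49 and 1.47 on control arrays. The 3 groups overlapped, and within null and control the lowest array was replicate 1 in both. Without the block the null minus control difference was -1.78 ± 1.03 (SE, adjusted p = 1), and it ranged from -2.69 without control replicate 1 to -0.84 without null replicate 1. Within pairs the differences were close to each other, -1.84, -1.58 and -1.92 for replicates 1, 2 and 3, and with the block Sox9 fell by 1.78 ± 0.13 (a 3.43-fold lower signal, limma adjusted p = 0.0292). The blocked call was lost when pair 1 or pair 2 was left out (adjusted p = 0.102 and 0.246) and held without pair 3 (adjusted p = 0.00645), with differences of -1.75, -1.88 and -1.71. Without pair 1 or pair 2 the blocked fit called 0 genes in all, and without pair 3 it called 690, against 184 with all pairs. The loss and the hold are therefore not particular to Sox9.

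Against Tbx18VP16, Sox9 gave no call. The Tbx18VP16 minus control difference was -0.29 ± 1.09 (adjusted p = 0.898) and the Tbx18VP16 minus null difference was 1.49 ± 1.09 (adjusted p = 0.452), or 0.55 without null replicate 1. An SE of this size leaves a fall or a rise of several-fold undetectable with these arrays. Markers of the ureteric epithelium, which also expresses Sox9, had a summed linear signal of 4.38 to 5.16 on Tbx18VP16 arrays, 3.42 to 14.2 on null arrays and 2.62 to 4.15 on control arrays, in units of the 75th percentile. All 12 were tested in null against control, 11 averaged higher in null and none passed. The lowest sum of each group, 4.38 in Tbx18VP16, 3.42 in null and 2.62 in control, was on replicate 1, which also had the lowest Sox9 level of its group. The highest sum and the highest Sox9 level fell on the same replicate in Tbx18VP16 and null, but not in control. The part of these cells in the Sox9 values was not tested.

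**Figure D2:**
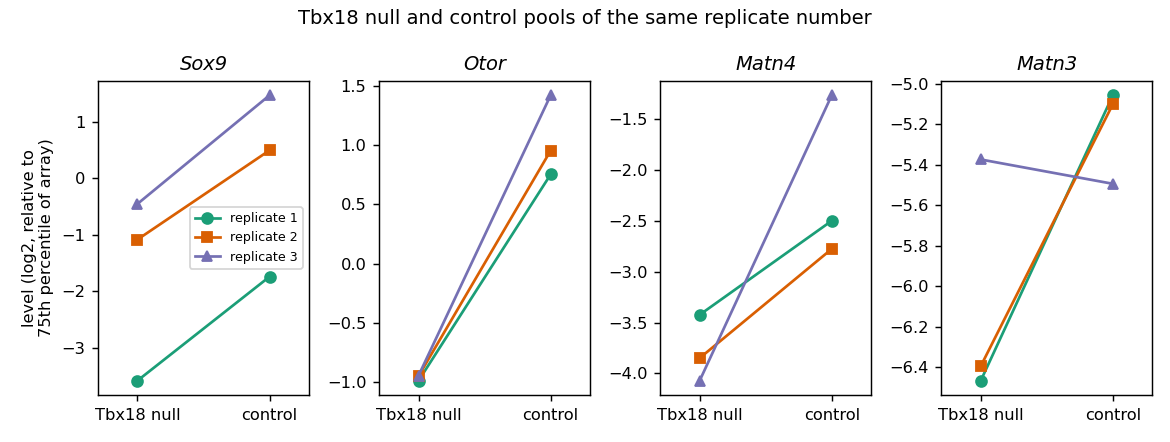
Null and control pools compared within each replicate pair for cartilage genes (log2), with replicates 1, 2 and 3 as circles, squares and triangles. The null minus control difference within pairs was -1.92 to -1.58 for Sox9 and -2.37 to -1.74 for Otor. For Matn4 it spread from -2.81 to -0.93.

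Sox6, a partner of Sox9, read -3.13 and -3.31 on Tbx18VP16 arrays, -4.11, -3.61 and -3.52 on null arrays and -3.87, -2.97 and -2.96 on control arrays. It lay lower on null than on Tbx18VP16 arrays without overlap, while control overlapped both. Differences were 0.05 ± 0.34 for Tbx18VP16 minus control (adjusted p = 0.952), 0.52 ± 0.34 for Tbx18VP16 minus null (adjusted p = 0.40) and -0.48 ± 0.33 for null minus control (adjusted p = 1, and 0.243 with the block). None passed the test.

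Sox5, the other partner, could not be described by 1 value, because its probes gave different pictures. The probe at base 4530 stood for the gene as its brightest and read 5.34 and 5.30 on Tbx18VP16 arrays, 5.41, 5.03 and 4.99 on null arrays and 5.72, 5.12 and 4.82 on control arrays. Its groups overlapped, with differences of 0.10 ± 0.31 for Tbx18VP16 minus control (adjusted p = 0.879) and -0.08 ± 0.30 for null minus control (adjusted p = 1). The probe at base 2696 was well above background on 3 of 8 arrays (0 of 2 Tbx18VP16, 1 of 3 null and 2 of 3 control), and that at base 1166 on none.

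The bright Sox5 probe is the one made only of A and G. Such probes numbered 23, or 0.0583% of all 39429. Every one of the 23 was well above background on all 8 arrays, against 21875 of all probes, and 18 of the 23 lay above the 75th percentile on average. Their median level was 2.49, against -4.02 for all probes, and the Sox5 probe had the highest mean of the 23. What this probe binds was not tested. The probe at base 2696 read -6.55 and -6.75 on Tbx18VP16 arrays, -7.79, -6.01 and -7.02 on null arrays and -7.66, -5.35 and -5.42 on control arrays. With every probe tested on its own, its differences were -0.51 ± 0.72 for Tbx18VP16 minus control (adjusted p = 0.794) and -0.79 ± 0.69 for null minus control (adjusted p = 1).

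**Figure D3:**
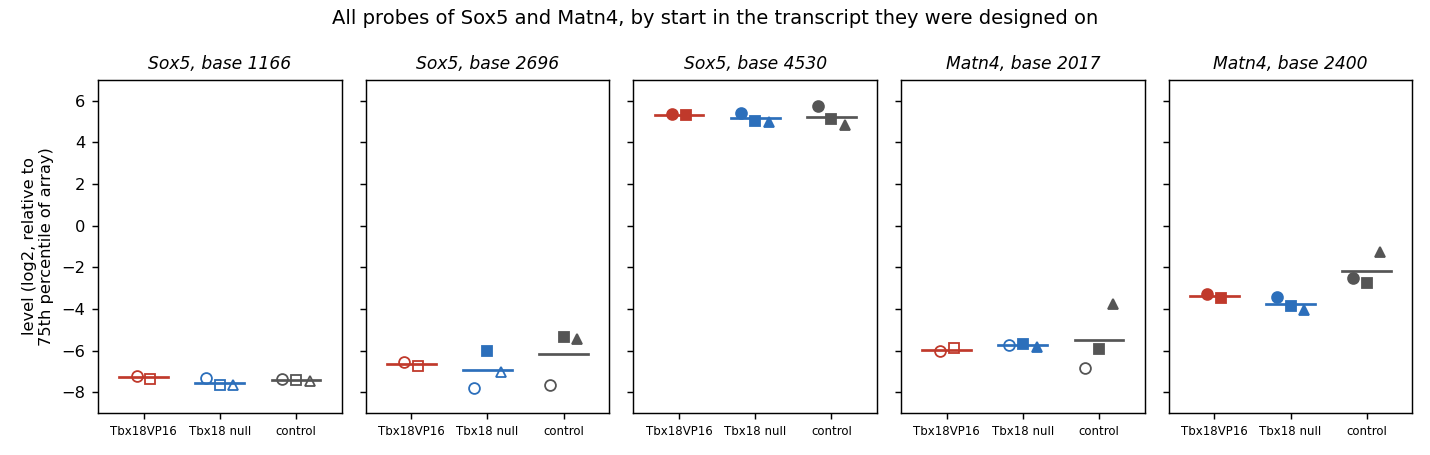
Levels of the 3 Sox5 and 2 Matn4 probes on each array (log2 of signal relative to the array's 75th percentile), with Tbx18VP16 left of Tbx18 null and control. Filled symbols are well above background and open ones are not. The A and G probe of Sox5 stays between 4.82 and 5.72 while the other 2 Sox5 probes lie at or below -5.35.

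Otor showed the clearest difference of the 9 genes. It read -1.50 and -1.31 on Tbx18VP16 arrays, -0.99, -0.95 and -0.94 on null arrays and 0.75, 0.95 and 1.42 on control arrays. All control arrays were above all others, and the 3 null arrays lay close together. In Tbx18VP16 cells Otor fell by 2.45 ± 0.26 relative to control (a 5.45-fold lower signal, limma adjusted p = 0.00312).

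The Otor call against control rested on both Tbx18VP16 arrays: without replicate 1 the difference was -2.35 (adjusted p = 0.0604), and without replicate 2 it was -2.54 (adjusted p = 0.0621). In null cells the difference was -2.003 ± 0.25 (a 4.01-fold lower signal, adjusted p = 0.083), just outside the threshold. With the block Otor fell in null cells (±0.17, adjusted p = 0.0323), with within-pair differences of -1.74, -1.90 and -2.37. That call was lost without pair 1 or pair 2 (adjusted p = 0.0893 and 0.257), where 0 genes in all were called. It held without pair 3 (adjusted p = 0.00449), where 690 were called. The Tbx18VP16 minus null difference was -0.44 ± 0.26 (adjusted p = 0.341), with both Tbx18VP16 arrays below all null arrays, as for 31.9% of all genes.

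Both comparisons with control use the same 3 control arrays, so the null and Tbx18VP16 differences of Otor are not independent. Markers of neural crest and glia, which include Sox10, had a summed linear signal of 0.748 to 0.766 on Tbx18VP16 arrays, 1.15 to 1.29 on null arrays and 1.36 to 1.61 on control arrays, with S100b well above background on no array and 3 of the 7 markers above it on every array. Markers of megakaryocytes and platelets summed to 4.5 to 8.87 on Tbx18VP16 arrays, 0.0851 to 1.65 on null arrays and 0.0615 to 0.109 on control arrays, and all 6 rose in Tbx18VP16 relative to control. The part of either list in the Otor result was not tested.

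The genes whose levels followed Otor most closely over the 8 arrays were Gpm6b (Pearson r = 0.992), Sfrp1 (r = 0.986) and Hopx (r = 0.980), among 15312 genes. The same listing for Sox9 gave Dsel (r = 0.986), Ctsc (r = 0.982) and Tnfaip6 (r = 0.972). These values describe 8 arrays in 3 groups, with slides shared between null and control, and carry no test.

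Matn4, a matrilin found in several tissues besides cartilage, read -3.27 and -3.48 on Tbx18VP16 arrays, -3.42, -3.85 and -4.07 on null arrays and -2.50, -2.78 and -1.26 on control arrays by its probe at base 2400. Every control array was above every other array. The difference was -1.60 ± 0.43 for null minus control (adjusted p = 0.446, and 0.194 with the block) and -1.20 ± 0.44 for Tbx18VP16 minus control (adjusted p = 0.161), so neither passed.

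Replicate 3 had the largest Matn4 difference within a pair, -2.81, against -0.93 and -1.07 in the other pairs. Without replicate 3, on slide 1 alone, the null minus control difference was -0.9993 and the groups still did not overlap. In the blocked fit Matn4 passed without pair 3 (limma adjusted p = 0.0206), where 690 genes in all were called. It did not pass without pair 1 or pair 2 (adjusted p = 0.233 and 0.467), where 0 genes were called. Leaving out 1 array at a time moved the null minus control difference between -1.90 and -1.14. The probe at base 2017 was well above background on 4 of 8 arrays, none of them Tbx18VP16. It read -6.02 and -5.90 on Tbx18VP16 arrays, -5.72, -5.69 and -5.84 on null arrays and -6.85, -5.94 and -3.75 on control arrays, with control spanning both other groups. Its null minus control difference was -0.24 ± 0.69 (adjusted p = 1), and whether the 2 probes differ was not tested.

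Matn3, a matrilin of growth cartilage, read -4.77 and -4.45 on Tbx18VP16 arrays, -6.47, -6.40 and -5.38 on null arrays and -5.06, -5.10 and -5.50 on control arrays. Both Tbx18VP16 arrays were above all others, and only 1 of 3 null arrays was well above background. The Tbx18VP16 minus null difference, 1.47 ± 0.36, missed the threshold (adjusted p = 0.0674), and it passed in 6 of 22 alternatives. With normexp background correction it was 0.12 (adjusted p = 0.814), more than 10 times smaller, and null minus control was -0.16 (adjusted p = 1), so the Matn3 differences depended on how background was treated. The Tbx18VP16 minus control difference was 0.61 ± 0.36 (adjusted p = 0.361), and null minus control was -0.86 ± 0.35 (adjusted p = 0.992). Matn1, the matrilin most typical of cartilage, had a probe well above background only on replicate 3 of null, at -5.84. It read -8.00 and -7.55 on Tbx18VP16 arrays, -7.95 and -8.18 on the other null arrays and -7.76, -8.40 and -8.49 on control arrays.

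Hapln1, the link protein gene, read -0.97 and -1.45 on Tbx18VP16 arrays, -0.84, -0.33 and 0.13 on null arrays and -0.47, 0.00 and -0.36 on control arrays, so both Tbx18VP16 arrays were below all others while null and control overlapped. The differences were -0.93 ± 0.33 for Tbx18VP16 minus control (adjusted p = 0.152), -0.86 ± 0.33 for Tbx18VP16 minus null (adjusted p = 0.188) and -0.07 ± 0.31 for null minus control (adjusted p = 1).

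Acan, whose product aggregates with the link protein, read -5.26 and -5.56 on Tbx18VP16 arrays, -4.65, -5.59 and -5.49 on null arrays and -4.55, -5.25 and -5.62 on control arrays, and the groups overlapped. The differences were -0.27 ± 0.40 for Tbx18VP16 minus control (adjusted p = 0.72), -0.17 ± 0.40 for Tbx18VP16 minus null (adjusted p = 0.835) and -0.10 ± 0.38 for null minus control (adjusted p = 1). Its probe was well above background on 7 of 8 arrays, with 1 of 2 in Tbx18VP16. Of the 8 genes tested, 5 averaged lower in Tbx18VP16 than in control, against 59.2% of all genes, and 3 lower in Tbx18VP16 than in null, against 60%. The median differences were -0.28 and 0.29, against -0.14 and -0.15 for all genes. Among the 8, groups did not overlap for 3 lower and 1 higher in Tbx18VP16 than in control, against 30.3% and 17.4% of all genes, and for 2 lower and 2 higher in Tbx18VP16 than in null, against 31.9% and 16.2%.

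**Figure D4:**
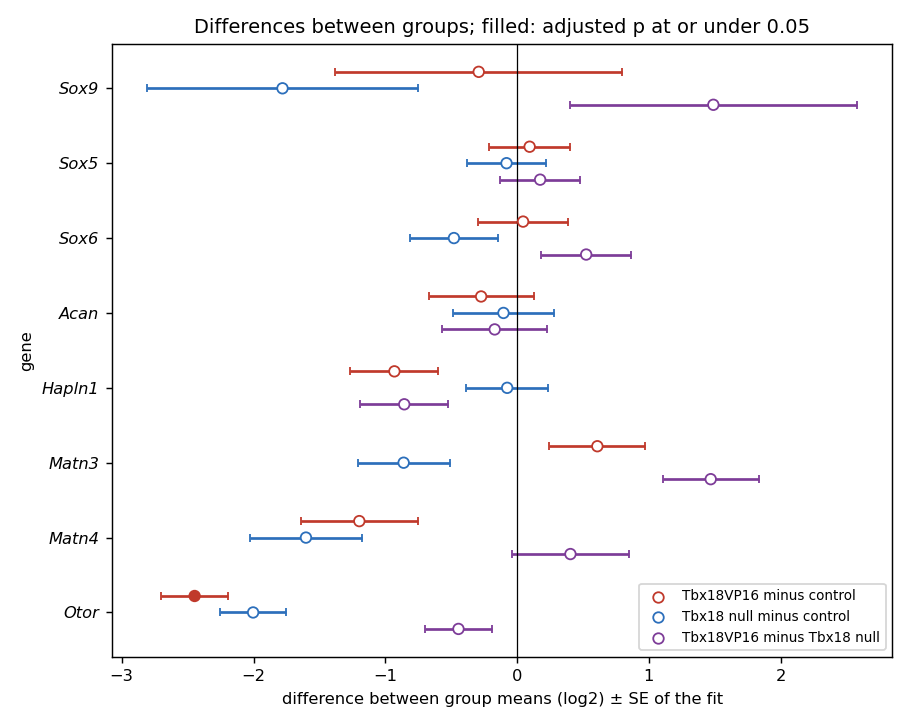
Differences of the 8 genes tested in the 3 comparisons (log2, with SE bars), where filled symbols have an adjusted p at or under 0.05 and the line marks 0. Otor in Tbx18VP16 minus control, at -2.45, is the only filled one, and the Sox9 bars are 1.03 to 1.09 long on either side.

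Other genes of the cartilage program, taken from lists written with earlier results of these data known, mostly gave no call. In null against control, 0 of 10 family relatives, 0 of 12 cartilage collagens and other products, 0 of 13 genes of proteoglycan synthesis and 0 of 20 genes of skeletal patterning passed, as for all genes (0 of 19708). Cartilage collagens and products were lower in null for 10 of 12, against 48.7% of all genes, with a median difference of -0.13, against 0.01 for all genes. Lower in null were also 9 of 13 synthesis genes (median -0.22), 10 of 20 patterning genes (-0.02) and 4 of 10 relatives (0.11). An unadjusted p at or under 0.05 (limma) was found for 0 of 12 products, 2 of 13 synthesis genes, 11 of 20 patterning genes and 4 of 10 relatives, against 4.83% of all genes. Col2a1, the main cartilage collagen, had a difference of -0.53 ± 0.33 (adjusted p = 1), and Col9a2, a chain of the collagen on its fibrils, had -0.83 ± 0.38 (adjusted p = 1).

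With the block, Scx, a tendon regulator, rose by 1.68 in null cells (blocked adjusted p = 0.0455). Without it the adjusted p was 0.18. The blocked call was lost without pair 1 or pair 2 (adjusted p = 0.102 and 0.277), where 0 genes in all were called. It held without pair 3 (adjusted p = 0.00952), where 690 were called. Gdf5, a joint-forming growth factor, was the gene of these lists with the largest negative difference in null, -1.87 ± 0.49 (adjusted p = 0.42), and it was also among the 3 genes most alike Matn4 (r = 0.949 over 8 arrays).

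In Tbx18VP16 against control, Chad, which encodes the cartilage leucine-rich protein chondroadherin, fell by 1.46 ± 0.28 (adjusted p = 0.0278). It also fell against null, by 1.32 ± 0.28 (adjusted p = 0.0476). It was the 1 call among 13 cartilage products tested, against 5.34% of all genes, and its null minus control difference was -0.14 ± 0.28 (adjusted p = 1). Pax9, a sclerotome regulator that starts the cartilage program in the vertebral column, rose at least 1.90-fold (adjusted p = 0.0082), since it was not well above background on any control array. The bound takes the mean of the Tbx18VP16 arrays over the lowest signal well above background on the control arrays, or the probe's own where higher. The Pax9 probe was well above background on both Tbx18VP16 arrays and 1 null array. It thus met the filter only through the group where it was high. Pax9 was the 1 call among 21 patterning genes tested, against 5.34% of all genes. Sclerotome markers, Pax9 among them, had a summed linear signal of 0.259 to 0.28 on Tbx18VP16 arrays and 0.181 to 0.297 on control arrays. The Pax9 call was lost without Tbx18VP16 replicate 1 or 2 (adjusted p = 0.0878 and 0.122). The Chad call against control was lost without Tbx18VP16 replicate 1 or 2 (adjusted p = 0.192 and 0.262), without any 1 control array (0.0521 to 0.0665) and without null replicate 2 (0.0501). Against null, Chad kept its call only without control replicate 1 (adjusted p = 0.048).

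Against null, Fgfr3, a growth factor receptor of growth plate cartilage, rose by 1.90 ± 0.33 in Tbx18VP16 cells (adjusted p = 0.0255). Chsy3, a chondroitin synthase, rose by 1.53 ± 0.28 (adjusted p = 0.0312), and Sox10, a neural crest relative of Sox9, fell by 1.44 ± 0.32 (adjusted p = 0.0496). These were 1 of 21 patterning genes, 1 of 13 synthesis genes and 1 of 10 relatives tested, against 3.67% of all genes. All 3 calls were lost without Tbx18VP16 replicate 1 or 2 (adjusted p = 0.228 to 0.367) and without null replicate 2 or 3 (0.0534 to 0.134). The Chsy3 call was also lost without control replicate 2 (adjusted p = 0.0597), and that of Sox10 without any 1 control array (0.0522 to 0.084). Prg4, the joint lubricant proteoglycan, had the widest spread, with -5.18 ± 1.68 for Tbx18VP16 minus control (adjusted p = 0.121).

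Promoter windows from RefSeq (GRCm38.p6, 250 bases before to 50 after a gene's start) were held for 8 of the 9 genes, all but Sox9, in 14 windows. On both strands the T-box letters AGGTGTGA were in none of the 14, against 1.28% of all 32851 windows. The shorter GGTGTG, which lies within AGGTGTGA, was in 1 window each of Matn1, Sox5 and Sox6 among the 14, against 19% of all windows. The SOX letters AACAAT were in 1 window of Sox6, against 3521 of all 32851. The windows of Otor, Matn3, Matn4, Acan and Hapln1 held none of these letters.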

How the data were processed

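The scanner files hold spot intensity values corrected for background by Agilent Feature Extraction 10.7.3.1, per the file headers and the submitters' processing notes. The authors' deposited value table, also linear intensity, served as an alternative. Control spots and outlier spots (1.86% to 2.55% of spots) were left out, the mean of the 4 spots of each probe was put on the log2 scale, and the array's 75th percentile over the 39429 shared probes was subtracted. Genes were named through RefSeq tables of GRCm38.p6: 27592 probes by accession, 3492 by symbol and 393 by synonym, 5113 as in the files and 2839 unnamed, each of which counted as a gene.

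The brightest probe on average stood for its gene. Tests took probes well above background on 3 or more of 6 null and control arrays, or 2 or more of 8 for Tbx18VP16. Null was compared with control on 6 arrays, and Tbx18VP16 with both groups in 1 fit of 8 arrays, by lmFit and eBayes of limma 3.58.1 in R 4.3.3, two-sided, Benjamini-Hochberg adjusted over all genes tested, threshold 0.05. Fits without a block were tested on simulated arrays that had no pair or slide effects, and the fit with the block was not simulated. The residual degrees of freedom were 4 and 5, and 2 with the block. Precision is limited by the few arrays, and p-values measure the spread between pools.

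Same-numbered null and control pools deviated together (correlations 0.827, 0.707 and 0.429, for other pairs -0.753 to 0.321), so the numbers were taken as pairs. Deviations from the mean of 3 arrays sum to 0, so high correlations for some pairs lower those of others. Replicate 3 of both groups also shared its own slide and an input of 10 ng, which cannot be told apart from pairing. The members, the gene lists and the named genes (all members, up to 4 of smallest p per list and any that passed) were chosen with earlier results of these data known. A gene that this rule takes is not reported here. Alternatives were normalization, background, filter, probe choice, left-out arrays, replicate and slide blocks, and samples in the fit.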

Additional observations from a re-analysis of the deposited data

How the results depend on the processing

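For null minus control, genes called numbered 0, and 1 with no filter, 14 with a strict filter, 6 with slide as a block, 70 in a fit of all 8 arrays, 184 with the replicate block and 0 to 4 with 1 array left out. Members called numbered 0, 2 with the replicate block and 1 (Otor, adjusted p = 0.0213) in the fit of 8 arrays. For Tbx18VP16 minus control, genes called numbered 1099, 625 with normexp, 3642 with the replicate block and 57 to 1920 with 1 array left out (79 and 57 without Tbx18VP16 replicate 1 and 2), and members called 0 to 1. For Tbx18VP16 minus null, genes called numbered 756, 404 with normexp, 432 in a fit of the 2 groups alone, 3292 with the replicate block and 11 to 814 with 1 array left out. Members called numbered 0, 2 with the replicate block (Sox9 2.15, adjusted p = 0.0207; Matn3 1.58, adjusted p = 0.0388), and 1 (Matn3) with quantile normalization, with the authors' values, with the percentile over all spots and with replicates 1 and 2 alone, and 0 to 1 with 1 array left out. Tbx18VP16 numbers did not pair the pools (correlations of replicate differences -0.101 with control and -0.0261 with null).

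The percentile over all spots, replicates 1 and 2 alone, the fits without the A and G probes and the fits of blocked pairs and of the related genes with pools left out were chosen after seeing the data. The percentile over all spots moved the median of all genes by 0.45 for Tbx18VP16 minus control, and calls split into 1091 higher and 248 lower, against 420 and 679. It moved it by 0.44 for Tbx18VP16 minus null (676 and 165, against 241 and 515). Quantile normalization (557 and 621; 354 and 415) and the authors' values (565 and 566; 391 and 395) moved it by 0.12 and 0.14.

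Signs turned only for differences that passed no test. Null minus control became 0.014 for Acan with normexp, and with 1 array left out ranged from -0.40 to 0.19 for Acan, -0.28 to 0.17 for Sox5 and -0.31 to 0.17 for Hapln1. Tbx18VP16 minus control became 0.16 for Sox9 and 0.18 for Acan over all spots, -0.14 for Sox6 and -0.042 for Matn3 with normexp, and for Sox5 -0.21 as the mean of probes and -0.51 without the A and G probe. With the replicate block it was 0.37 for Sox9 and -0.043 for Sox5, and with replicates 1 and 2 alone 0.41 and -0.10. With 1 array left out it ranged from -1.20 to 0.41 for Sox9, -0.10 to 0.35 for Sox5, -0.26 to 0.20 for Sox6 and -0.51 to 0.02 for Acan. Tbx18VP16 minus null for Acan became 0.13 with quantile normalization, 0.27 over all spots and 0.19 with the authors' values, and ranged from -0.34 to 0.13 with 1 array left out. Matn3 in Tbx18VP16 minus null became 0.12 with normexp. The cause was not tested. Otor against control kept its direction in all 22 alternatives and its call in 20.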
